A study of Mus musculus with 12 samples.

Results

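The 10 genes described here, Arc, Npas4, Nr4a1, Nr4a2, Nr4a3, Bdnf, Inhba, Dusp1, Btg2 and Ier2, are genes that neurons switch on after firing. They were taken by symbol from a table of 54427 genes, and all 10 had enough reads to be among the 17227 genes tested. By role, 6 are early regulators that work in the nucleus or on transcription (Npas4, Nr4a1, Nr4a2, Nr4a3, Ier2 and Btg2) and 4 are effectors that act at synapses, in signalling or outside the cell (Arc, Dusp1, Bdnf and Inhba). No cut on a measured value was used to choose them, but the choice was made with earlier results of these data known. Counts of called members are therefore descriptive.

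The study sequenced RNA of the mouse hippocampus, with 12 libraries in 4 groups of 3. The groups were mice labelled for both 5xFAD and Ulk1OV (5xFAD;Ulk1OV), 5xFAD, Ulk1OV, and wild type (WT). 5xFAD mice carry mutant human transgenes, APP among them, driven by the Thy1 promoter, which is active in neurons, and develop amyloid plaques, while the labels give Ulk1OV as overexpression of ULK1, the kinase that starts autophagy. The promoter and construct of Ulk1OV, the age, sex and strain of the mice and any stimulation before tissue was taken are not given in the sources used. Nothing in the labels ties replicates to separate animals, and the p-values therefore rest on a spread between libraries that may be technical only.

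When a neuron fires, calcium enters and kinases phosphorylate CREB and SRF with its partners, factors already bound at these promoters, so that transcription starts without new protein synthesis. The first products are largely transcription factors and signalling regulators, which then control later genes whose products change synapses, secretion and growth factor supply. In the hippocampus these transcripts rise with novelty, learning and seizures and fall back within hours, and many of them are also induced by growth factors or stress in vessels and glia.

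Library totals ran from 16149992 to 18547132 counts. Ulk1 itself had 85.1 to 98.5 CPM (counts scaled to a common library size) in 5xFAD;Ulk1OV, 63.5 to 86.3 in 5xFAD, 84.6 to 102 in Ulk1OV and 74.1 to 81.8 in WT, and the lowest Ulk1OV-labelled libraries lay below the highest 5xFAD library. One library did not match its label: the library labelled 5xFAD;Ulk1OV replicate 3 had 1310 CPM of App and 954 of Prnp, inside the ranges of the libraries without 5xFAD, and the members' calls that rest on it are also given with it left out. Summed markers of neurons (7331 to 10329 CPM), dentate granule cells (297.1 to 574 CPM) and CA pyramidal cells (547.3 to 821.8 CPM) were present in every library, and markers of tissue outside the hippocampus summed to 100.7 to 150.5 CPM. Choroid plexus markers reached 4198 CPM in 1 Ulk1OV library and 6240 CPM in 1 WT library, where the medians of those groups were 204.4 and 88.6 CPM.

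DNA just before RefSeq transcription starts of these genes is shown to mark the letters that CREB binds, where present. RefSeq promoter windows on GRCm38.p6 were found for 8 of the 10 members, with 7 windows for Bdnf and 1 for each of the other 7; Arc and Ier2 are named only. The 250 bases before the transcription start were searched on both strands for the core of the cAMP response element, TGACG, and for the full element, TGACGTCA, which holds a core on each strand that overlap each other. Of the 7 members with 1 window, 6 held at least 1 core, where 17.8% of all 32851 promoter windows did. Capitals mark the cores in the 6 windows printed, each 250 bases long and read 5′ to 3′ on the gene's own strand. The windows of Npas4, Nr4a1 and Dusp1 lie inside the GENCODE gene spans given below, and that of Nr4a3 lies partly inside, as their RefSeq starts are within those spans. Btg2 (chr1:134079156-134079405, minus strand), Nr4a1 (chr15:101266596-101266845, plus strand), Npas4 (chr19:4989972-4990221, minus strand) and Dusp1 (chr17:26508473-26508722, minus strand) are genes that were lower in Ulk1OV libraries than in WT libraries, Nr4a3 (chr4:48045055-48045304, plus strand) is a relative of Nr4a1 that did not pass the test, and Inhba (chr13:16011601-16011850, plus strand) is the gene that was higher.
Btg2: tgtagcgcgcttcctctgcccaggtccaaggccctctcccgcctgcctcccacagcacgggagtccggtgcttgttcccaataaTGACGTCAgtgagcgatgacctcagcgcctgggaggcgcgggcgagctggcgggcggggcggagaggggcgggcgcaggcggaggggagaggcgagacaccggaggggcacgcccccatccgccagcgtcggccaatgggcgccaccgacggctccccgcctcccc
Nr4a1: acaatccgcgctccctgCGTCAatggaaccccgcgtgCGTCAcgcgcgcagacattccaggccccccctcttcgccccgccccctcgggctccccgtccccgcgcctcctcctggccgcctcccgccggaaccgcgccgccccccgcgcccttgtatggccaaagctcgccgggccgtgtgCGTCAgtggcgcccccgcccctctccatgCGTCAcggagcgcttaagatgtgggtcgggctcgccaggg
Npas4: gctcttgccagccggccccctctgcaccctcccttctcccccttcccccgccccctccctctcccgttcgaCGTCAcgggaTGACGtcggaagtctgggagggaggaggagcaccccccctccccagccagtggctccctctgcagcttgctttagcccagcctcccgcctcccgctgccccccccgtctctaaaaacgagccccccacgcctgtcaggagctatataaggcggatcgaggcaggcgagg
Dusp1: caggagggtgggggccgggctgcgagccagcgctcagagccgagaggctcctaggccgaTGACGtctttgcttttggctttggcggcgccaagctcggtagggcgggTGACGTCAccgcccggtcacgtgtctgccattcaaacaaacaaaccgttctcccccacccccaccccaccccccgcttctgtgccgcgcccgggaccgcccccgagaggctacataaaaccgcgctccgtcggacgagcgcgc
Nr4a3: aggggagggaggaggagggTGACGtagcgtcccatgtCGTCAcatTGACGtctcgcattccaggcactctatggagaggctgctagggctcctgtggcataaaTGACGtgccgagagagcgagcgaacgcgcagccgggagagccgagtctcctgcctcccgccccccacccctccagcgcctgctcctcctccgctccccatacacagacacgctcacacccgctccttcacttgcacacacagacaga
Inhba: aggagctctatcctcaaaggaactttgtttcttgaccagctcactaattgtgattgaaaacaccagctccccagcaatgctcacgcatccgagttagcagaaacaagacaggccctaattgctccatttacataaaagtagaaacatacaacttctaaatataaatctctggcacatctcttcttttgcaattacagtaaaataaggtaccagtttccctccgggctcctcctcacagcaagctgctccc

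Btg2 and Dusp1 held the full element, 166 and 143 bases before the start, which 1.55% of all windows held. Nr4a1 held 4 cores, the nearest 40 bases before the start, Nr4a2 and Nr4a3 also held 4 each, Dusp1 held 3 and Npas4 held 2. In Bdnf 1 of the 7 windows held 1 core, and the Inhba window held none. An exact match to the CArG box bound by SRF, found in 1.47% of all windows, was in no window of these members. Near matches were not counted, and at so low a share no match in these few windows says little. Cores were thus found in members that passed the test in Ulk1OV against WT (Btg2, Nr4a1, Npas4 and Dusp1) and in members that did not (Nr4a2 and Nr4a3); a match says only that the letters are there.

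Levels of the members were compared per length. Per kilobase of exon, Arc was the most abundant member, with a mean of 45.5 CPM per kb in 5xFAD;Ulk1OV, 41.6 in 5xFAD, 31.1 in Ulk1OV and 49 in WT libraries. Inhba had 1.11, 1.2, 2.12 and 0.902 CPM per kb in the same order, the lowest of the members in every group but Ulk1OV. Npas4, the neuron-restricted factor, was the lowest there, at 1.59 CPM per kb in Ulk1OV, against 2.59 in WT. Nr4a1 was at 14.6 CPM per kb in Ulk1OV and 31.4 in WT. Over the 12 libraries the highest CPM was 3.82 times the lowest for Inhba and 3.61 times for Btg2, but 1.47 times for Bdnf and 1.58 times for Nr4a2. RNA of whole tissue cannot tell fewer expressing cells from less RNA per cell.

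**Figure D1:**
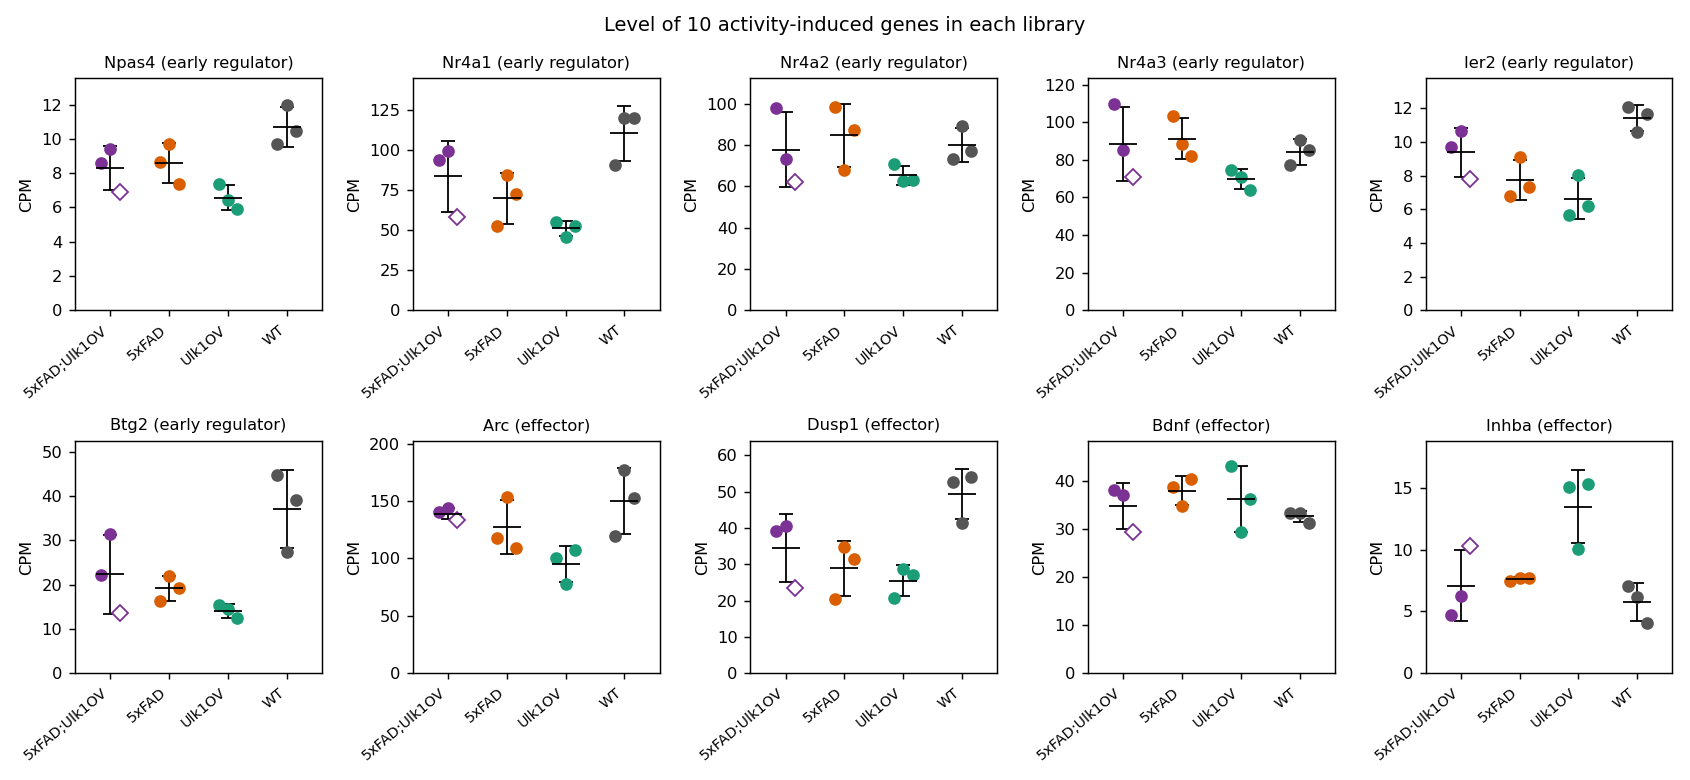
Level (CPM, y axis from 0) of each of the 10 genes in 5xFAD;Ulk1OV, 5xFAD, Ulk1OV and WT libraries; points are libraries, bars the mean ± SD of 3, and the open diamond the library labelled 5xFAD;Ulk1OV replicate 3. In Npas4, Nr4a1, Nr4a2, Nr4a3, Ier2, Btg2, Arc and Dusp1 the 3 Ulk1OV points lie below the 3 WT points, as in 14.5% of all tested genes. In Inhba the Ulk1OV points lie above the WT points, as in 15.0% of all tested genes.

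Ulk1OV libraries were set against WT libraries to see what differs with Ulk1 overexpression in mice without 5xFAD. Here 7 of the 10 members passed the test: Npas4, Nr4a1, Ier2, Btg2, Arc and Dusp1 fell and Inhba rose, where 5.17% of all tested genes were called in either direction, 3.04% lower and 2.14% higher. Among early regulators 4 of 6 fell, with a median log2 fold change of -0.74 over the 6. Among effectors 2 of 4 fell and 1 rose, with a median of -0.25, where the median over all tested genes was 0.003. Chosen by timing in place of role, the 6 that fell are the rapidly induced members, and the slower Nr4a2, Nr4a3, Bdnf and Inhba gave 1 rise and 0 falls; this split was made with earlier results of these data known and was not tested.

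Btg2, a transcriptional co-regulator that recruits mRNA deadenylases and restrains proliferation (GRCm38 chromosome 1, 134075170 to 134079120), had the largest difference of the 10. It had 15.4, 14.4 and 12.4 CPM in Ulk1OV replicates 1, 2 and 3, against 44.8, 27.3 and 39.1 CPM in WT. Every Ulk1OV library was below every WT library. The log2 fold change was -1.40 ± 0.26 (SE; edgeR adjusted p = 0.0222).

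Nr4a1, an orphan nuclear receptor that acts as an activity-induced transcription factor (chromosome 15, 101254269 to 101274795), had 55.2, 45.7 and 52.4 CPM in Ulk1OV libraries, against 90.5, 120.2 and 120 CPM in WT. All 3 Ulk1OV values were close together and the groups did not overlap, as in 14.5% of all tested genes in this direction. Its log2 fold change was -1.11 ± 0.20 (edgeR adjusted p = 0.0222). The related receptors Nr4a2 (chromosome 2, 57106830 to 57124003), which dopamine neurons also need to form, and Nr4a3 (chromosome 4, 48045153 to 48086447) had smaller differences. Nr4a2 averaged 65.4 ± 4.68 CPM in Ulk1OV and 79.9 ± 8.18 in WT (SD, n = 3 each), a log2 fold change of -0.29 ± 0.16 (edgeR adjusted p = 0.285). Nr4a3 averaged 69.8 ± 5.24 CPM in Ulk1OV and 84.3 ± 6.86 in WT, a log2 fold change of -0.27 ± 0.14 (edgeR adjusted p = 0.253). Neither passed the test, although the Ulk1OV libraries were below all WT libraries in both; the difference between Nr4a1 and its relatives was not tested.

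Npas4, a transcription factor induced by calcium entry that controls inhibitory synapses onto excitatory neurons (chromosome 19, 4984355 to 4990316), had 7.36, 6.43 and 5.94 CPM in Ulk1OV libraries, against 9.7, 12 and 10.4 CPM in WT. Its groups did not overlap, and the log2 fold change was -0.70 ± 0.17 (edgeR adjusted p = 0.0353). Ier2, a nuclear protein of the immediate early response (chromosome 8, 84661331 to 84662852), had 5.68, 8.02 and 6.21 CPM in Ulk1OV libraries, against 12, 10.6 and 11.6 CPM in WT. It too was lower in all 3 Ulk1OV libraries, with a log2 fold change of -0.78 ± 0.18 (edgeR adjusted p = 0.031).

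Of the effectors, Arc, a dendritic protein that removes AMPA receptors from synapses (chromosome 15, 74669083 to 74672570), had 100.5, 77.5 and 107 CPM in Ulk1OV libraries, against 119.7, 177.3 and 152.3 CPM in WT. The highest Ulk1OV library lay below the lowest WT library, so the groups did not overlap, and the log2 fold change was -0.66 ± 0.16 (edgeR adjusted p = 0.0362). Dusp1, a nuclear phosphatase that switches off MAP kinases (chromosome 17, 26505590 to 26562128), had 20.8, 28.7 and 27.1 CPM in Ulk1OV libraries, against 52.6, 41.3 and 54 CPM in WT. Its groups did not overlap either, and the log2 fold change was -0.95 ± 0.22 (edgeR adjusted p = 0.0345). The annotated span of Dusp1 overlaps Ergic1 on the other strand, and no source used here says whether counting used strand, so reads of that pair are uncertain. It also overlaps AC122252.4, a processed pseudogene, and AC122252.1 on its own strand, and strand could not part their reads from those of Dusp1.

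Both secreted effectors differed from this. Inhba, the subunit that pairs with itself to make activin A (chromosome 13, 16011851 to 16031621), had 15.1, 10.1 and 15.4 CPM in Ulk1OV libraries, against 7.05, 6.21 and 4.03 CPM in WT. It was higher in all 3 Ulk1OV libraries, with a log2 fold change of 1.23 ± 0.27 (edgeR adjusted p = 0.0299), where groups did not overlap upward in 15.0% of all tested genes. Bdnf, the neurotrophin that binds TrkB (chromosome 2, 109674700 to 109727007), had 43.2, 29.4 and 36.3 CPM in Ulk1OV libraries, against 33.4, 33.3 and 31.3 CPM in WT. The Ulk1OV libraries of Bdnf lay on both sides of the WT libraries, and the log2 fold change of 0.15 ± 0.14 did not pass the test (edgeR adjusted p = 0.525). Antisense genes overlap Inhba and Bdnf on the other strand, so their counts share the uncertainty about strand.

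The calls depended on single libraries and on one correction. Without Ulk1OV replicate 3, WT replicate 1 or WT replicate 2, edgeR called 0 of all genes tested and so 0 members, with 7 members at an unadjusted p under 0.05 each time. It called 3 members among 493 genes without Ulk1OV replicate 1, 5 among 1027 without Ulk1OV replicate 2, and 2 among 443 without WT replicate 3. DESeq2 on all libraries called 7 members and 10.9% of all genes, and edgeR without the library labelled 5xFAD;Ulk1OV replicate 3 called 7 members and 6.72% of all genes. With the dependence on transcript GC content and length removed from every library, 3 were called, where 3.62% of all genes were: Nr4a1, Btg2 and Inhba, with log2 fold changes of -0.93, -1.41 and 1.06, and the calls of Dusp1 (-0.86, edgeR adjusted p = 0.0507), Npas4 (-0.56, edgeR adjusted p = 0.07), Ier2 (-0.51, edgeR adjusted p = 0.102) and Arc (-0.40, edgeR adjusted p = 0.236) ended.

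Markers of other cell types also differed in this comparison. Summed markers of fibroblasts were 104.9 to 145.4 CPM in Ulk1OV and 190.2 to 263 CPM in WT libraries, and 4 of the 6 markers were called lower. Mural cell markers summed to 91.7 to 107.1 CPM in Ulk1OV and 139.7 to 192.2 CPM in WT, with 2 of 6 called lower. Endothelial markers summed to 43.3 to 54.3 CPM in Ulk1OV and 44.9 to 69.7 CPM in WT, with 1 of 6 called lower, and border macrophage markers to 9.26 to 16.7 CPM in Ulk1OV and 21.1 to 44.6 CPM in WT, with 0 of 5 called by edgeR and 4 lower at an unadjusted p under 0.05. Blood markers summed to 54.5 to 136 CPM in Ulk1OV and 94.8 to 208.5 CPM in WT, with 1 of 5 called lower. Neuron markers summed to 7590 to 8816 CPM and 7846.5 to 8921 CPM in the same order, with 0 of 6 called by edgeR (2 lower at an unadjusted p under 0.05). CA pyramidal cell markers summed to 549.9 to 716.8 CPM and 619.6 to 798.1 CPM, with 0 of 6 called. Dentate granule cell markers went the other way, with 446.9 to 526.3 CPM in Ulk1OV and 297.1 to 429.4 CPM in WT and 0 of 6 called by edgeR (2 higher at an unadjusted p under 0.05). Interneuron markers summed to 1238 to 1337 CPM in Ulk1OV and 935.8 to 1145 CPM in WT, with 0 of 6 called by edgeR (1 higher at an unadjusted p under 0.05). Astrocyte markers summed to 5912 to 6252 CPM in Ulk1OV and 5044 to 5664 CPM in WT, with 0 of 6 called by edgeR and 0 at an unadjusted p under 0.05. Reads of mitochondrially encoded genes took 6.40% to 8.76% of counts in Ulk1OV and 5.05% to 5.42% in WT. None of the marker genes was at 0 in any library. The part of these shifts in the members' differences was not tested.

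**Figure D2:**
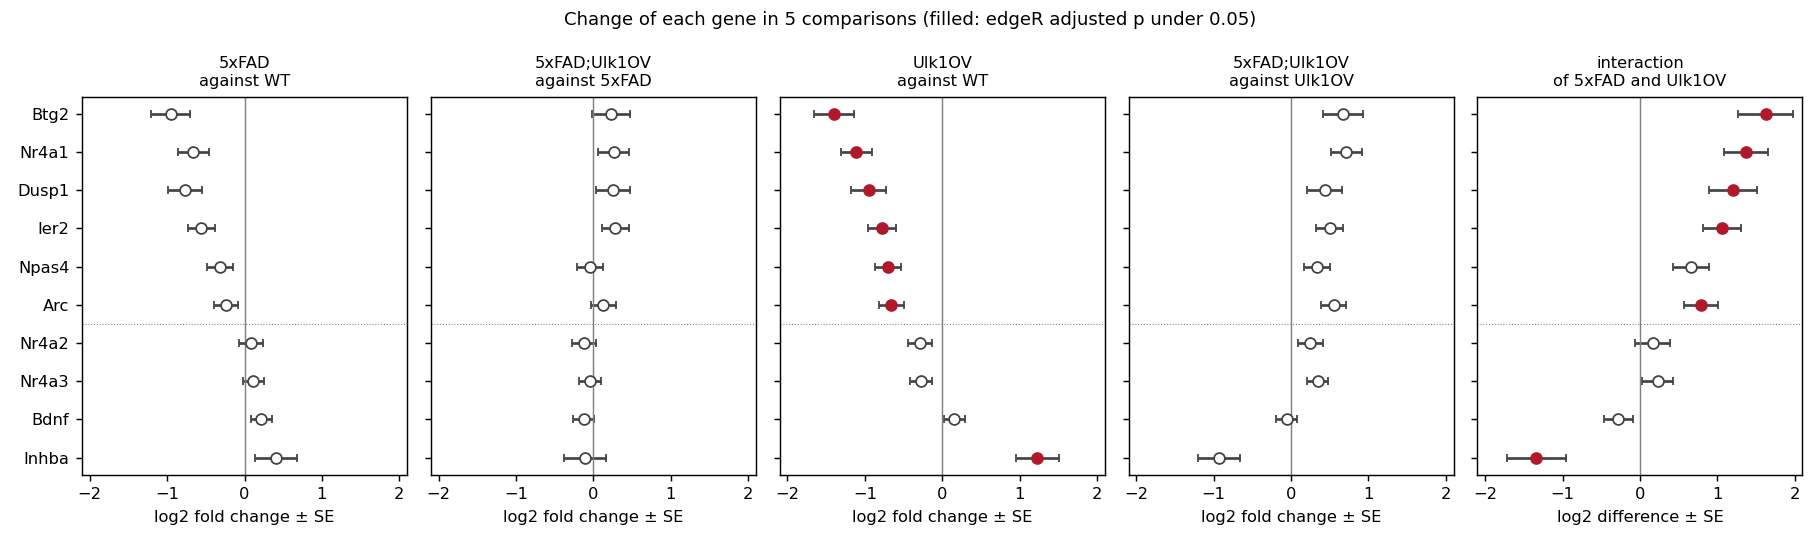
Log2 fold change ± SE (x axis) of each gene (rows, the 6 rapidly induced genes above the dotted line) in 4 comparisons and, at the right, the interaction; filled points passed the edgeR test. In Ulk1OV against WT 7 points are filled, from -1.40 for Btg2 to 1.23 for Inhba, while no point is filled in 5xFAD against WT, 5xFAD;Ulk1OV against 5xFAD or 5xFAD;Ulk1OV against Ulk1OV.

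5xFAD libraries were set against WT libraries to see what differs with the amyloid model alone. Here edgeR called 0 members and 0 of all 17227 genes (12.4% of genes at an unadjusted p under 0.05), while DESeq2 called 1 member, Btg2 (adjusted p = 0.0266), and 0.871% of all genes. The library labelled 5xFAD;Ulk1OV replicate 3 is in neither group here, but leaving it out also changed the shared spread, the scaling and the genes that passed the filter (17603); edgeR then called 0 members and 0.0170% of all genes, and with the GC and length correction 0 members and 0 genes. At an unadjusted p under 0.05, 4 of the 10 members were lower and 0 higher, where 6.41% of all genes were lower. These were 3 early regulators, Btg2, Nr4a1 and Ier2, and the effector Dusp1.

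Btg2 had 16.2, 22 and 19.2 CPM in 5xFAD replicates 1, 2 and 3, against 44.8, 27.3 and 39.1 CPM in WT, and a log2 fold change of -0.95 ± 0.25 (edgeR adjusted p = 0.233). Nr4a1 had 52.3, 84.1 and 72.8 CPM in 5xFAD libraries, against 90.5, 120.2 and 120 CPM in WT, with a log2 fold change of -0.66 ± 0.20 (edgeR adjusted p = 0.248). In both genes, and in Dusp1 and Ier2, all 3 5xFAD libraries were below all 3 WT libraries, which was so for 9.05% of all tested genes. Dusp1 averaged 28.9 ± 7.58 CPM in 5xFAD and 49.3 ± 6.98 in WT, and Ier2 7.74 ± 1.21 in 5xFAD and 11.4 ± 0.763 in WT (SD, n = 3 each); neither passed the edgeR test across all genes. Npas4 (-0.32 ± 0.16) and Arc (-0.24 ± 0.16) had smaller log2 fold changes, with overlapping groups.

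Bdnf and Inhba were on the other side of 0. Bdnf had 38.8, 34.8 and 40.5 CPM in 5xFAD libraries, against 33.4, 33.3 and 31.3 CPM in WT, and Inhba 7.46, 7.75 and 7.72 CPM in 5xFAD, against 7.05, 6.21 and 4.03 CPM in WT. Both groups were apart, as in 10.5% of all tested genes in this direction, but the log2 fold changes of 0.22 ± 0.14 (Bdnf, edgeR adjusted p = 0.534) and 0.41 ± 0.28 (Inhba, edgeR adjusted p = 0.571) did not pass the test. The 2 remaining members, Nr4a2 (0.08 ± 0.16) and Nr4a3 (0.11 ± 0.14), overlapped between the groups. This comparison shares its WT libraries with that of Ulk1OV against WT, so the directions in the 2 are not independent. Fibroblast markers summed to 91.7 to 183.9 CPM in 5xFAD and 190.2 to 263 CPM in WT libraries, with 4 of 6 lower at an unadjusted p under 0.05. Choroid plexus markers summed to 24.1 to 152.6 CPM in 5xFAD and 50.4 to 6240 CPM in WT, with 5 of 6 lower at an unadjusted p under 0.05. The group medians went the other way, at 125.2 CPM in 5xFAD and 88.6 CPM in WT, and the highest WT value came from a single library. The part of these markers in the members' values was not tested.

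5xFAD;Ulk1OV libraries were set against Ulk1OV libraries to see the difference with 5xFAD among mice that all carry Ulk1OV. The Ulk1OV libraries are those already set against WT, so directions here are not independent of that comparison. With all libraries edgeR called 0 of the 10 members, where 6.10% of all genes were called, 3.67% higher and 2.43% lower. At an unadjusted p under 0.05, 5 members were higher and 1 lower, where 24.8% of all genes passed in either direction, and DESeq2 called 3 members (Nr4a1, Arc and Inhba) and 11.8% of all genes. With the GC and length correction edgeR called 0 members, with 4 at an unadjusted p under 0.05, and 2.96% of all genes. Nr4a1 had 93.7, 99.1 and 58.3 CPM in 5xFAD;Ulk1OV replicates 1, 2 and 3, against 55.2, 45.7 and 52.4 CPM in Ulk1OV. The library labelled 5xFAD;Ulk1OV replicate 3 lay close to the Ulk1OV libraries and the other 2 far above them. The log2 fold change was 0.71 ± 0.20 (edgeR adjusted p = 0.052) with it and 0.93 ± 0.17 (edgeR adjusted p = 0.0116) without it.

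Without that library 4 members passed the test, where 8.97% of all genes did: Nr4a1, Btg2 (0.95 ± 0.21, edgeR adjusted p = 0.0198) and Nr4a3 (0.50 ± 0.13, edgeR adjusted p = 0.0322) rose and Inhba (-1.28 ± 0.26, edgeR adjusted p = 0.0134) fell. Btg2 had 22.2 and 31.4 CPM in 5xFAD;Ulk1OV replicates 1 and 2 and 13.5 in the library labelled replicate 3, against 15.4, 14.4 and 12.4 CPM in Ulk1OV. Inhba had 4.69, 6.29 and 10.3 CPM in the same 5xFAD;Ulk1OV libraries, against 15.1, 10.1 and 15.4 CPM in Ulk1OV. In both genes the library labelled replicate 3 was the one that fell inside the Ulk1OV range. Arc did not depend on it in this way: it had 140.1, 143.6 and 133.4 CPM in 5xFAD;Ulk1OV libraries, against 100.5, 77.5 and 107 CPM in Ulk1OV, apart as in 14.2% of all tested genes in this direction, with a log2 fold change of 0.55 ± 0.16 (edgeR adjusted p = 0.0553) with it and 0.59 ± 0.18 (edgeR adjusted p = 0.0565) without it. Ier2 (0.50 ± 0.18), Dusp1 (0.43 ± 0.22), Npas4 (0.34 ± 0.17) and Nr4a2 (0.25 ± 0.16) had log2 fold changes above 0 that did not pass the test with or without that library, and Bdnf was at -0.06 ± 0.14. Leaving out Ulk1OV replicate 2 gave 2 called members, Ier2 and Inhba, and this count is given only to name them.

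Fibroblast markers summed to 131.6 to 266.7 CPM in 5xFAD;Ulk1OV and 104.9 to 145.4 CPM in Ulk1OV libraries, with 3 of 6 called higher, and mural cell markers to 120.8 to 196 CPM and 91.7 to 107.1 CPM in the same order, with 1 of 6 called higher; with the library labelled replicate 3 left out, 4 and 2 of 6 were called higher. Mitochondrially encoded genes took 4.17%, 4.03% and 5.97% of counts in the 5xFAD;Ulk1OV libraries and 6.40% to 8.76% in Ulk1OV. The part of these differences in the members' values was not tested.

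5xFAD;Ulk1OV libraries were also set against 5xFAD libraries, which compares Ulk1OV within the amyloid model. No member passed the test by edgeR or DESeq2, and 0 had an unadjusted p under 0.05, where edgeR called 0.0464% of all genes (8 genes, all higher, with 17.4% of genes at an unadjusted p under 0.05) and DESeq2 4.26%. All log2 fold changes lay between -0.13 (Bdnf) and 0.28 (Ier2). Nr4a1 had 93.7, 99.1 and 58.3 CPM in 5xFAD;Ulk1OV libraries, against 52.3, 84.1 and 72.8 CPM in 5xFAD, and the groups overlapped, as they did for all 10 members. Without the library labelled 5xFAD;Ulk1OV replicate 3 the log2 fold changes of Nr4a1 (0.48 ± 0.17), Btg2 (0.50 ± 0.21), Dusp1 (0.48 ± 0.20) and Ier2 (0.41 ± 0.18) were larger and Inhba was at -0.46 ± 0.25, with 0 members and 0.0682% of all genes called by edgeR (adjusted p of 0.19 to 0.369 for these 5, and 4 members at an unadjusted p under 0.05). With the GC and length correction edgeR called 0 members and 0 genes.

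The interaction tested whether the difference between 5xFAD and non-5xFAD libraries depended on Ulk1OV, as the log2 fold change of 5xFAD;Ulk1OV against Ulk1OV minus that of 5xFAD against WT. It was called in 6 of 10 members, where 12.8% of all genes were called, 6.80% higher and 5.96% lower. Ulk1OV and WT libraries enter it too, so these calls are not independent of those in Ulk1OV against WT. For Nr4a1 the 2 log2 fold changes were 0.71 and -0.66, a difference of 1.37 ± 0.28 (edgeR adjusted p = 0.0103). For Btg2 they were 0.67 and -0.95, a difference of 1.62 ± 0.36 (edgeR adjusted p = 0.0134). Ier2 (1.06 ± 0.25, edgeR adjusted p = 0.0171), Dusp1 (1.21 ± 0.31, edgeR adjusted p = 0.0259) and Arc (0.79 ± 0.22, edgeR adjusted p = 0.0355) had the same sign. Inhba had the opposite one, with log2 fold changes of -0.93 and 0.41 and a difference of -1.34 ± 0.39 (edgeR adjusted p = 0.0381). All 6 calls held when the library labelled 5xFAD;Ulk1OV replicate 3 was left out: the difference was then 1.60 ± 0.23 for Nr4a1, 1.91 ± 0.28 for Btg2, 1.21 ± 0.25 for Ier2, 1.44 ± 0.27 for Dusp1, 0.84 ± 0.24 for Arc and -1.68 ± 0.34 for Inhba (edgeR adjusted p of 0.00297 to 0.0363).

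By role the interaction was called higher in 3 of 6 early regulators (median 0.86 over the 6), and in effectors 2 of 4 were called higher and 1 lower (median 0.26), where the median of all tested genes was -0.009. By timing it was called in 5 of the 6 rapidly induced members, all higher, and in 1 of the 4 slower ones. That split was made with earlier results of these data known. Its rapid members are those called lower in Ulk1OV against WT, whose libraries enter the interaction, so the split adds no support here. Npas4 (0.66 ± 0.24, edgeR adjusted p = 0.0816) passed without the library labelled 5xFAD;Ulk1OV replicate 3 (0.80 ± 0.23, edgeR adjusted p = 0.0374), where 14.4% of all genes then passed, while Nr4a2 (0.17 ± 0.22), Nr4a3 (0.23 ± 0.20) and Bdnf (-0.28 ± 0.19) did not pass with or without it. DESeq2 called the same 6 members and 16.8% of all genes. With the GC and length correction 1 member was called, Btg2 (1.63 ± 0.36, edgeR adjusted p = 0.0238), where 5.58% of all genes were, and Ier2 and Arc were at 0.50 ± 0.24 and 0.36 ± 0.27. Leaving out 1 library gave 2 to 7 called members: 2 (Nr4a1 and Btg2) without 5xFAD;Ulk1OV replicate 2, and 3 without 5xFAD;Ulk1OV replicate 1, Ulk1OV replicate 1 or Ulk1OV replicate 3. Calls over all genes changed too. They were 1008 of 17592 without 5xFAD;Ulk1OV replicate 2 and 1145 of 17616 without 5xFAD;Ulk1OV replicate 1, against 2197 of 17227 with every library. Nr4a1 and Btg2 were called whichever library was left out, and Inhba only where that was the library labelled 5xFAD;Ulk1OV replicate 3 or Ulk1OV replicate 2. Fibroblast markers were called higher in the interaction in 4 of 6, mural cell markers in 3 of 6 and endothelial markers in 2 of 6, and their part in the members' values was not tested.

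**Figure D3:**
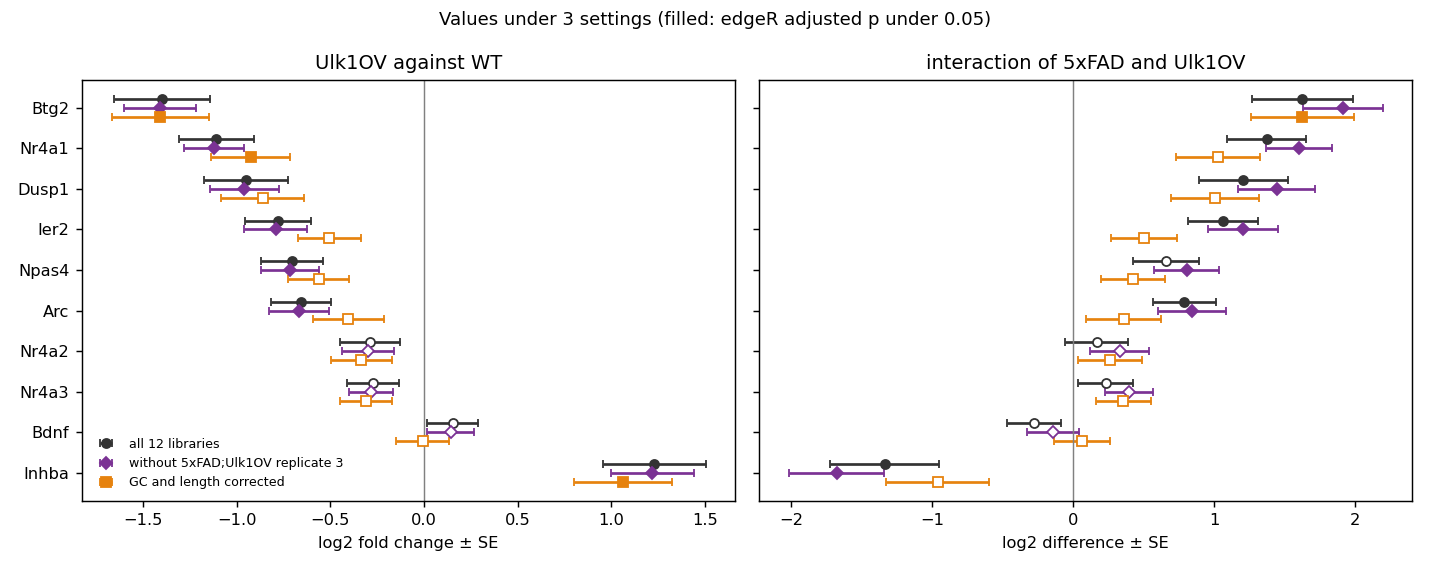
Log2 fold change of Ulk1OV against WT (left) and log2 difference of the interaction (right), each ± SE, for each gene with all 12 libraries (circles), without the library labelled 5xFAD;Ulk1OV replicate 3 (diamonds) and with the GC and length correction (squares); filled points passed the edgeR test. The correction leaves Btg2 at -1.41 and 1.63 and brings Ier2 to -0.51 and 0.50.

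The pattern library by library was described as the deviation of log2 CPM from each gene's mean over the 12 libraries. In each of the 3 Ulk1OV libraries all 6 rapidly induced members were below their means, with median deviations of -0.45, -0.47 and -0.47. These 6 are the members called lower in Ulk1OV against WT, so their low values in Ulk1OV libraries are no separate result. In the library labelled 5xFAD;Ulk1OV replicate 3, 5 of the 6 were below, with a median of -0.32, whereas 0 were below in 5xFAD;Ulk1OV replicates 1 and 2 (medians 0.17 and 0.31). The 5xFAD libraries were mixed, with 5, 0 and 6 of the 6 below their means in replicates 1, 2 and 3. WT libraries had 1, 0 and 0 below, with medians of 0.38, 0.43 and 0.56. For the 4 slower members, whose values do not go one way, the median deviations lay between -0.24 and 0.24 over all 12 libraries, while Inhba alone was at 0.93 and 0.95 in Ulk1OV replicates 1 and 3.

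**Figure D4:**
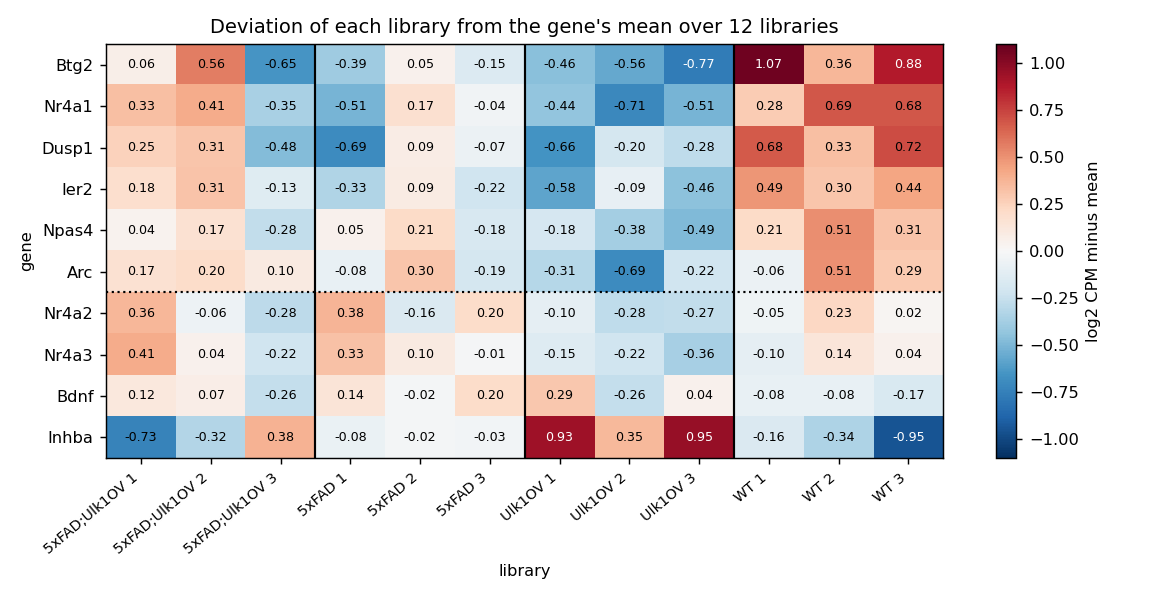
Log2 CPM minus the gene's mean over 12 libraries (colour scale and printed values) for each gene (rows) in each library (columns, by group; solid lines part the groups and the dotted line the 6 rapidly induced genes from the 4 slower ones). The 3 Ulk1OV columns are blue in the upper 6 rows, which hold the genes called lower in Ulk1OV against WT. Inhba in the bottom row has its highest values, 0.93 and 0.95, in Ulk1OV replicates 1 and 3.

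The order of the group means was WT highest and Ulk1OV lowest for Npas4, Nr4a1, Ier2, Btg2, Arc and Dusp1, and Ulk1OV highest and WT lowest for Inhba. Nr4a2 and Nr4a3 were highest in 5xFAD and lowest in Ulk1OV, and Bdnf was highest in 5xFAD and lowest in WT. Most neighbours in these orders had overlapping libraries. The exceptions were Ulk1OV below 5xFAD for Btg2 and Arc, Ulk1OV below WT for Nr4a3, 5xFAD;Ulk1OV below WT for Dusp1, and Ulk1OV above 5xFAD for Inhba.

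Members also differed in how alike they were over the 12 libraries, measured as the root mean square difference of centred log2 CPM. Nr4a2 and Nr4a3 were the closest pair of members (0.11), followed by Npas4 with Arc and Ier2 with Dusp1 (0.19 each), and Btg2 and Inhba were the farthest apart (1.07). Of 15203 other genes, those closest to Nr4a1 were Slc2a10, a glucose transporter (0.21), and Fos, an immediate early transcription factor (0.21). Closest to Btg2 were Fn1, the matrix protein fibronectin (0.22), and Myzap (0.24), and closest to Dusp1 were Bmp6, a secreted growth factor (0.19), and Cyr61, a matrix protein of the immediate early response (0.21). Nr4a3 was closest to Nell1 (0.07) and Tenm2 (0.09), Nr4a2 to Rps6kl1 and Extl1 (0.10 each), and Bdnf to Nck2 and Cbfa2t2 (0.07 each). Isoc2b was the nearest gene to Npas4 (0.13). The nearest genes to Ier2 were Fcgrt and Efemp2 (0.15 each), to Arc Slc39a8 (0.15) and Mafk (0.16), and to Inhba Gm38020 (0.25) and Folh1 (0.27). These are descriptions of likeness in the same 12 libraries, with no test.

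Further genes of the same programme were read from lists. Of 28 other early activity genes, 7 fell and 0 rose in Ulk1OV against WT, where 3.04% of all genes were lower, with a median log2 fold change of -0.63. With the library labelled 5xFAD;Ulk1OV replicate 3 left out, which is in neither group, 11 fell, where 733 of all 17603 genes did. Egr1, a zinc finger transcription factor, averaged 79.5 ± 22.4 CPM in Ulk1OV and 181 ± 22.3 in WT (SD, n = 3 each), a log2 fold change of -1.19 ± 0.16 (edgeR adjusted p = 0.0106). Junb (-1.33 ± 0.18, edgeR adjusted p = 0.0106), Klf2 (-1.90 ± 0.31, edgeR adjusted p = 0.0191) and Fos (-1.20 ± 0.20, edgeR adjusted p = 0.0196) also fell; Klf2 is known as a factor of endothelial cells as well. In 5xFAD;Ulk1OV against Ulk1OV 7 of the 28 rose and 0 fell, where 3.67% of all genes were higher, among them Egr4 (1.36 ± 0.24, edgeR adjusted p = 0.016) and Junb (1.03 ± 0.18, edgeR adjusted p = 0.016), whose calls there ended after the GC and length correction (edgeR adjusted p = 0.0526 and 0.0868), and the interaction was called higher in 11, where 6.80% of all genes were. With that library left out these counts were 9 and 12, where 941 and 1446 of all 17603 genes were called higher. Egr4 (1.49, edgeR adjusted p = 0.00884) and Junb (1.24, edgeR adjusted p = 0.00318) still rose in 5xFAD;Ulk1OV against Ulk1OV. No gene of the list was called by edgeR in 5xFAD against WT (median -0.45, 11 lower, where 6.41% of all genes were, and 1 higher at an unadjusted p under 0.05) or in 5xFAD;Ulk1OV against 5xFAD (median 0.14). In the latter 6 were higher and 0 lower at an unadjusted p under 0.05, where 1440 of all 17227 genes were higher.

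Of 16 other later activity genes, 1 rose and 0 fell in Ulk1OV against WT, where 2.14% of all genes were higher, with a median of 0.07; a count of 1 is too near that share to be read as a result about the list. The gene that rose was Scg2, a secretory granule protein, which averaged 271.4 ± 16.8 CPM in Ulk1OV and 181.7 ± 15.4 in WT, a log2 fold change of 0.58 ± 0.11 (edgeR adjusted p = 0.0222). Scg2 fell in 5xFAD;Ulk1OV against Ulk1OV (-0.40 ± 0.11, edgeR adjusted p = 0.0404; 0.065 after the GC and length correction and 0.046 with the library labelled 5xFAD;Ulk1OV replicate 3 left out). In the interaction 1 of the 16 was called higher, near the 6.80% of all genes: Vgf, a neuropeptide precursor (0.90 ± 0.19, edgeR adjusted p = 0.0123; 0.95 with that library left out, edgeR adjusted p = 0.012), whose value was 0.25 after the GC and length correction, no longer called. No difference between the early and the later list was tested.

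Of 19 upstream kinases and factors, edgeR called 0 in Ulk1OV against WT (2 lower at an unadjusted p under 0.05), with a median of -0.009, and Srf, which drives many immediate early genes, was the nearest to the threshold (-0.33 ± 0.12, edgeR adjusted p = 0.109; 0.09 after the GC and length correction). In the interaction Srf was called higher (0.55 ± 0.17, edgeR adjusted p = 0.0468; 0.66 with the library labelled 5xFAD;Ulk1OV replicate 3 left out, edgeR adjusted p = 0.0234); the call did not hold after the GC and length correction, where Srf had the opposite sign, at -0.14.

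Partners of single members were also read; counts of 1 or 2 in lists of 10 to 16 genes are given to name the genes and say nothing of the lists. Of 10 genes of BDNF processing, receptors and signalling, edgeR called 0 in Ulk1OV against WT (2 higher and 1 lower at an unadjusted p under 0.05). Of 16 genes of the activin pathway, 1 fell and 0 rose there: Smad7, an inhibitor of the pathway, averaged 19.7 ± 1.39 CPM in Ulk1OV and 29 ± 5.32 in WT (-0.56 ± 0.15, edgeR adjusted p = 0.0481), and it rose in 5xFAD;Ulk1OV against Ulk1OV (0.57 ± 0.15, edgeR adjusted p = 0.0411). Neither call of Smad7 held after the GC and length correction, and the second was also lost when the library labelled 5xFAD;Ulk1OV replicate 3 was left out. Among 10 partners of Arc, 1 rose in Ulk1OV against WT, Rnf216, a ubiquitin ligase that targets Arc (0.33 ± 0.08, edgeR adjusted p = 0.0406). Among 12 relatives and partners of Btg2, Dusp1 and Ier2, 2 rose there, Cnot7, the deadenylase that BTG proteins bind (0.39 ± 0.09, edgeR adjusted p = 0.0299), and Btg3 (0.52 ± 0.13, edgeR adjusted p = 0.0381). Cnot7 fell in 5xFAD;Ulk1OV against Ulk1OV (-0.50 ± 0.09, edgeR adjusted p = 0.016), the opposite of the sign of Btg2 in each of these comparisons. Of 10 genes induced by glucocorticoids, 1 fell in Ulk1OV against WT, Ddit4, an inhibitor of mTORC1 (-0.85 ± 0.19, edgeR adjusted p = 0.0299), and it rose in 5xFAD;Ulk1OV against Ulk1OV (0.91 ± 0.19, edgeR adjusted p = 0.02). After the GC and length correction the calls of Cnot7 and Btg3 in Ulk1OV against WT (edgeR adjusted p = 0.101 and 0.0507) and both calls of Ddit4 (edgeR adjusted p = 0.0507 and 0.0543) ended, while that of Rnf216 (edgeR adjusted p = 0.0256) did not. With the library labelled 5xFAD;Ulk1OV replicate 3 left out, Cnot7 (-0.50, edgeR adjusted p = 0.0142) and Ddit4 (0.90, edgeR adjusted p = 0.024) were still called in 5xFAD;Ulk1OV against Ulk1OV.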

How the data were processed

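Per the file header and its values, the table deposited by the authors holds whole read counts by gene, 1 column a library, not normalized. The submitters' processing notes name featureCounts, HISAT2, SAMtools, Trim Galore, FastQC and DESeq2 and the mouse build mm10, without versions; the annotation and the strand setting of the counting are not stated in any source used. The default filter of edgeR 4.0.16 (R 4.3.3) left 17227 genes. Its quasi-likelihood test, with TMM scaling, was fitted with 1 mean per group over all 12 libraries, and a gene was called at a Benjamini-Hochberg adjusted p under 0.05 over all genes tested. Standard errors are the log2 fold change over the square root of F, levels are CPM, and SD is over 3 libraries. For 3 against 3 libraries the smallest exact two-sided permutation p is 0.1, and members were therefore tested in the fitted model. The edgeR test was tried on simulated counts.

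Replicates differed by more than sampling noise (chi-square over its degrees of freedom was 7.06 to 29 in pairs), so each was counted. Positions and exon lengths come from GENCODE M21 on GRCm38, promoters from RefSeq (GRCm38.p6). For 1 alternative a loess trend (span 0.4) over transcript GC content and length, known for 99.3% of tested genes, was removed from every library. The other alternatives were DESeq2 1.42.0, its size factors, no filter, a replicate block, only 6 libraries, and each library left out.

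The members and gene lists were chosen with earlier results of these data known. All members were named; of each list, up to 4 called genes with the smallest p, or the gene nearest to the threshold; and for each member the 2 genes most like it with a mean of at least 1 CPM. Some genes that this rule names are not reported here.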

Additional observations from a re-analysis of the deposited data

Results flagged for a closer look

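The difference with 5xFAD was not the same with and without Ulk1OV in 6 members, by the test of that difference itself (edgeR, adjusted over all genes, where 12.8% of genes were called). The log2 differences were 1.37 for Nr4a1, 1.06 for Ier2, 1.62 for Btg2, 0.79 for Arc, 1.21 for Dusp1 and -1.34 for Inhba. In Nr4a1, Ier2, Btg2, Arc and Dusp1 the log2 fold change was above 0 in 5xFAD;Ulk1OV against Ulk1OV and below 0 in 5xFAD against WT, and in Inhba the signs were the other way round. None of these 12 single fold changes passed the edgeR test with all 12 libraries (DESeq2 called Nr4a1, Arc and Inhba in 5xFAD;Ulk1OV against Ulk1OV and Btg2 in 5xFAD against WT). Btg2 kept its call after the GC and length correction and the other 5 did not. These signs and calls rest in part on the libraries of Ulk1OV against WT and are not independent of that comparison.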

How the results depend on the processing

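DESeq2's size factors and the replicate block changed no count of called members: with the replicate block they were 0 in 5xFAD against WT, 0 in 5xFAD;Ulk1OV against 5xFAD, 7 in Ulk1OV against WT, 0 in 5xFAD;Ulk1OV against Ulk1OV and 6 in the interaction. Of all 17227 genes the replicate block called 0, 0, 1033, 1206 and 2259 in the same order. Same-numbered libraries had correlations of -0.18 to 0.22 in their deviations from group means, with 4 of 18 over 0.1. Libraries with different numbers had correlations of -0.205 to 0.222, with 7 of 54 over 0.1. Such correlations cannot tell whether the replicate numbers pair the libraries. DESeq2 called 1 member in 5xFAD against WT and 3 in 5xFAD;Ulk1OV against Ulk1OV, where it called 0.871% and 11.8% of all genes. Without the filter on low counts edgeR called 3 and 6 in the same comparisons, among 551 and 2097 of 31643 genes. The GC and length correction left 3 in Ulk1OV against WT and 1 in the interaction, where 3.62% and 5.58% of all genes were called. In 5xFAD;Ulk1OV against Ulk1OV, 1 was called with only the 6 libraries, among 430 of 16477 genes. There 4 were called once 5xFAD;Ulk1OV replicate 3 was left out, among 1579 of 17603 genes. Leaving out each replicate in turn gave 0 to 5 in Ulk1OV against WT, 0 to 4 in 5xFAD;Ulk1OV against Ulk1OV and 2 to 7 in the interaction. The number of all genes called also changed with the library left out, and with 1 library fewer the test had fewer degrees of freedom. The causes of all these changes in count were not tested.

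Signs of members changed only in log2 values that did not pass the test. In 5xFAD;Ulk1OV against 5xFAD the GC and length correction gave 0.046 for Nr4a3, -0.004 for Ier2, -0.048 for Arc, 0.055 for Bdnf and 0.10 for Inhba. For Bdnf it gave -0.008 in Ulk1OV against WT, 0.14 in 5xFAD;Ulk1OV against Ulk1OV and 0.063 in the interaction. Without the library labelled 5xFAD;Ulk1OV replicate 3, 5xFAD;Ulk1OV against 5xFAD gave 0.088 for Npas4, 0.03 for Nr4a2, 0.11 for Nr4a3 and 0 for Bdnf, and Bdnf was at 0.064 in 5xFAD;Ulk1OV against Ulk1OV. Over the replicates left out, Nr4a2 ranged from -0.049 to 0.22 in 5xFAD against WT and from -0.034 to 0.33 in the interaction, and Bdnf from -0.18 to 0.083 in 5xFAD;Ulk1OV against Ulk1OV. In 5xFAD;Ulk1OV against 5xFAD the ranges were -0.15 to 0.088 for Npas4, -0.32 to 0.03 for Nr4a2, -0.23 to 0.11 for Nr4a3, -0.10 to 0.50 for Btg2, -0.20 to 0 for Bdnf and -0.46 to 0.12 for Inhba.

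In Ulk1OV against WT the log2 fold changes of Nr4a2 (-0.29 ± 0.16) and Nr4a3 (-0.27 ± 0.14) were within 2 SEs of 0, and differences of that size are not told from 0 where the spread between libraries is like theirs.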
